A study of Mus musculus with 16 samples.

Results

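Macrophages that had been exposed to lipopolysaccharide (LPS) but sorted for low side scatter, called bystanders, were compared with the ungated LPS-treated culture, called the LPS pool, across all genes. Side scatter is the light that structures inside a cell deflect, and the sort kept the low bin for bystanders and the high bin for cells called responders. The comparison used 8 of the 16 libraries, 4 bystander and 4 LPS pool libraries, chosen by their labels alone. All cells were iBMDM, immortalised macrophages grown from mouse bone marrow, named iBMDM MyD88-AGF with genotype MyD88-AGF WT. Bystanders and LPS pool alike received 10 ng/mL LPS for 6 h, while the untreated cells received none. Sorted cells were collected before the LPS pool and the untreated cells, which passed through the cytometer without a gate, so order of collection and gating cannot be told apart. After washing, every step was at 4 °C, and each library's cells were lysed in TRIzol LS. Whether the line is 1 clone, and whether replicates were separate cultures, is not given in the sources used here, so p-values here cover only differences among these libraries, which may be technical.

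LPS is a cell-wall glycolipid of Gram-negative bacteria that is handed by CD14 to the receptor TLR4. TLR4 signals through the adaptor MyD88, which assembles with IRAK kinases into the myddosome and leads to NF-kappaB and the transcription of cytokines, chemokines and inhibitors of the pathway itself. A further branch, through the adaptor TRIF, leads to interferon beta, which is secreted and acts through STAT factors on the interferon-stimulated genes of the same and of neighbouring cells. The title of the series asks which factors mediate assembly of the myddosome.

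Library totals were 16178278 to 25193162 counts in bystanders and 15287344 to 22655307 counts in the LPS pool. Macrophage markers were present in both groups: 9 of 10 stood at 1 CPM (a gene's count scaled by its library's size) or more in all 8 libraries, and the 10 summed to 4911 to 4935 CPM in bystanders and 4858 to 4914 CPM in the LPS pool, although 2 of the 10 were higher and 5 lower in bystanders, over log2 folds of -1.05 to 0.98. Among 15 lymphocyte markers 10, including Cd3e and Nkg7, had 0 reads in all 8 libraries. The 15 summed to 6.67 to 7.54 CPM in bystanders and 5.21 to 6.57 CPM in the LPS pool. Of the 2 tested, Cd4 was higher in bystanders (227% of the LPS pool mean) and Lck lower (79.5%). The 7 erythroid markers summed to 0.989 CPM at most. The 13 neutrophil markers summed to 27.1 to 29.7 CPM in bystanders and 68.0 to 73.3 CPM in the LPS pool, with the defining S100a9 and Ly6g at 0 reads in all 8. Dendritic cell markers, 10 in number, summed to 492 to 522 CPM in bystanders and 804 to 839 CPM in the LPS pool, and their level came mainly from Bst2, which is also an interferon-stimulated gene. Low levels of neural transcripts set 6 of the 16 libraries apart: 18 neural markers with a median under 1 CPM summed to 11.4 to 19.9 CPM there and to 1.1 to 2.2 CPM in the other 10. The full list of 25 neural markers summed to 809 to 831 CPM in bystanders and 532 to 551 CPM in the LPS pool, with 4 of 15 tested higher and 1 lower. Untreated cells had 776 to 828 CPM and responders 490 to 531 CPM. Most of this level came from members other than the 18, which libraries without neural transcripts also held. Replicates 3 and 4 of the bystanders and replicates 3 and 4 of the LPS pool were among the 6. The 13 fibroblast markers summed, per library, to 8.78 to 101 CPM in bystanders and 6.97 to 122 CPM in the LPS pool. Libraries of the same group thus differed widely in fibroblast transcripts. Between the 10 libraries without neural transcripts and the 6 with them, the fold moved by over 1.5 times for 14 of 104 named genes. All 14 were among the 15 lowest. Both values stand beside each fold printed for these genes, and the part of the neural transcripts in them was not tested.

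Bystanders differed from the LPS pool at most genes, by under 1.5-fold for most of those called, with cytokines such as Il1b far lower and regulators such as Rgs2 and Socs1 well above the LPS pool. Of 12589 genes tested in edgeR's quasi-likelihood test, 4298 (34.1%) were higher and 4142 (32.9%) lower in bystanders at an adjusted p under 0.05. A change of at least 2-fold was seen for 513 genes higher (4.07%) and 620 genes lower (4.92%) in bystanders. The 8440 genes called comprised 5880 that differed by less than 1.5-fold. At 4-fold or more 182 genes were lower and 49 higher, and at 16-fold or more 51 were lower and 1 was higher, Nxpe5, which stood at 1.37, 2.0, 1.28 and 0.943 CPM in bystanders and 0.289, 0, 0 and 0 CPM in the LPS pool and was named after its values were seen. All 4 bystander libraries stood above all 4 LPS pool libraries for 3829 genes (30.4%) and below them for 3645 genes (29%). Scaling by library totals alone, without the trimmed mean of M-values (TMM) used here, moved the median log2 fold of all genes from 0.003 to 0.14 and the share of calls that were higher from 50.9% to 68.4%, with 5951 genes higher and 2755 lower. Directions below are therefore relative to the TMM scaling, and groups whose direction changed with the scaling are named. Counts of called members in each list below are to be read beside 34.1% higher and 32.9% lower over all genes tested. In bulk samples such as these, fewer cells of a kind and less RNA per cell cannot be told apart.

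**Figure D1:**
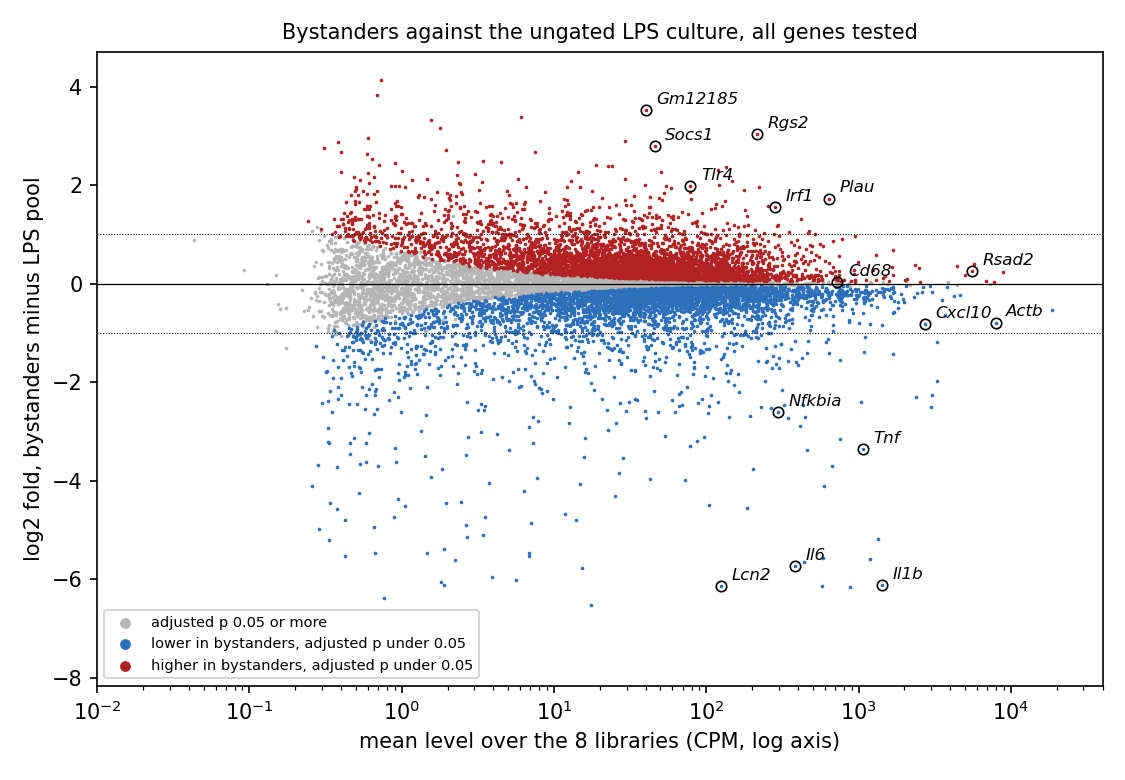
Each point is 1 of the 12589 genes tested, with the mean level over the 8 libraries in TMM-scaled CPM on a log axis across and the log2 fold of bystanders minus LPS pool upward; dotted lines mark 2-fold. The points spread much further below 0 than above it: 51 genes were at least 16-fold lower in bystanders and 1 was at least 16-fold higher, while Cd68 lay at 0.03.

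The untreated and responder libraries show where the 2 groups lay. Of the 620 genes at least 2-fold lower in bystanders, the bystander mean fell between the untreated and LPS pool means for 333 and below both for 287. For the same 620 the LPS pool mean lay between the bystander and responder means for 491 and at or beyond the responder mean for 129. Of the 513 genes at least 2-fold higher, the bystander mean was above both the untreated and the LPS pool mean for 441, and the LPS pool mean was below the untreated mean for 369. For these 513 the LPS pool mean lay between bystanders and responders for 285 and at or beyond responders for 228. For the 15 lowest genes named below, the LPS pool mean was 79.0% to 98.5% of the responder mean, below it for 15 of 15. For the 15 highest genes it was 72.4% to 176% of the responder mean, with 9 of 15 below it. These positions are of group means, with no test, and were not counted over all genes tested. The side of the LPS pool mean on which the bystander mean fell was set by the choice of the genes.

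Inflammatory cytokine transcripts had the lowest median of the 29 gene lists in bystanders. Of 22 cytokine genes tested, 20 were lower and 2 higher, 18 of the 20 by at least 2-fold, with a median log2 fold of -3.10 beside 0.003 over all genes tested. The 2 that were higher, named after their values were seen, were Il15 (73.1 against 59.6 CPM) and Csf1 (213 against 159 CPM), growth factors for lymphocytes and macrophages. Il1b (chromosome 2, 129364569 to 129371164, GRCm38), which encodes the secreted cytokine interleukin-1 beta, stood at 7.79, 9.03, 64.1 and 65.1 CPM in bystander replicates 1 to 4 and at 2798, 2782, 2793 and 2926 CPM in LPS pool replicates 1 to 4. The groups did not overlap, and replicates 1 and 2 of the bystanders lay close to the untreated level of 7.32 ± 1.24 CPM (SD, n = 4), replicates 3 and 4 well above it. Il1b was 70.0-fold lower in bystanders (log2 fold -6.13 ± 0.35 SE, edgeR adjusted p = 2.14e-09), 333-fold among the libraries without neural transcripts and 44.2-fold among those with them.

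Il1a, the other interleukin-1, stood at 4.75, 5.15, 37.8 and 38.7 CPM in bystanders and 1727, 1744, 1748 and 1748 CPM in the LPS pool, 72.0-fold lower (edgeR adjusted p = 3.28e-10), 351-fold without and 45.6-fold with the neural-transcript libraries. Il6 (chromosome 5, 30013114 to 30019975), the inducer of the acute-phase response, stood at 5.90, 6.00, 19.7 and 20.2 CPM in bystanders and 739, 729, 742 and 798 CPM in the LPS pool, beside 1.49 ± 0.157 CPM in untreated cells. It was 53.1-fold lower, 124-fold without and 38.6-fold with the neural-transcript libraries. Bystander replicates 1 and 2 again lay below replicates 3 and 4, and all 4 lay above the untreated mean and far under the LPS pool. Csf3, the granulocyte colony-stimulating factor, stood at 2.35, 2.61, 25.6 and 26.5 CPM in bystanders and 1117, 1137, 1134 and 1185 CPM in the LPS pool, 70.5-fold lower (edgeR adjusted p = 2.09e-10), 456-fold without and 44.4-fold with the neural-transcript libraries. Il1f6, which encodes interleukin-36 alpha, rested on 0, 1, 19 and 11 reads in bystanders and 595, 728, 568 and 487 reads in the LPS pool libraries. Csf2, the granulocyte-macrophage colony-stimulating factor, had 1, 0, 7 and 6 reads in bystanders and 195, 237, 162 and 170 reads in the LPS pool. With so few bystander reads the sizes of both folds depend on the fit. The bystander and LPS pool reads were far apart for both genes. The rule for naming the lowest folds required no overlap between the groups, so its absence for Il1f6 and Csf2 was set by that rule.

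Tnf, the tumour necrosis factor, was less far down. It stood at 171, 175, 203 and 205 CPM in bystanders and 1979, 1982, 1877 and 1990.0 CPM in the LPS pool, 10.3-fold lower (log2 fold -3.37 ± 0.051 SE, edgeR adjusted p = 3.82e-16). All 4 bystander libraries were above the untreated mean of 78.6 ± 2.60 CPM. Il1rn, the receptor antagonist that blocks interleukin-1, stood at 1292, 1306, 1347 and 1348 CPM in bystanders and 5268, 5271, 5152 and 5236 CPM in the LPS pool, 3.95-fold lower, with an untreated mean of 301 CPM. Osm, the cytokine oncostatin M, was 2.89-fold lower at 25 ± 0.661 against 72.4 ± 1.17 CPM (SD, n = 4 each, edgeR adjusted p = 6.25e-39).

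**Figure D2:**
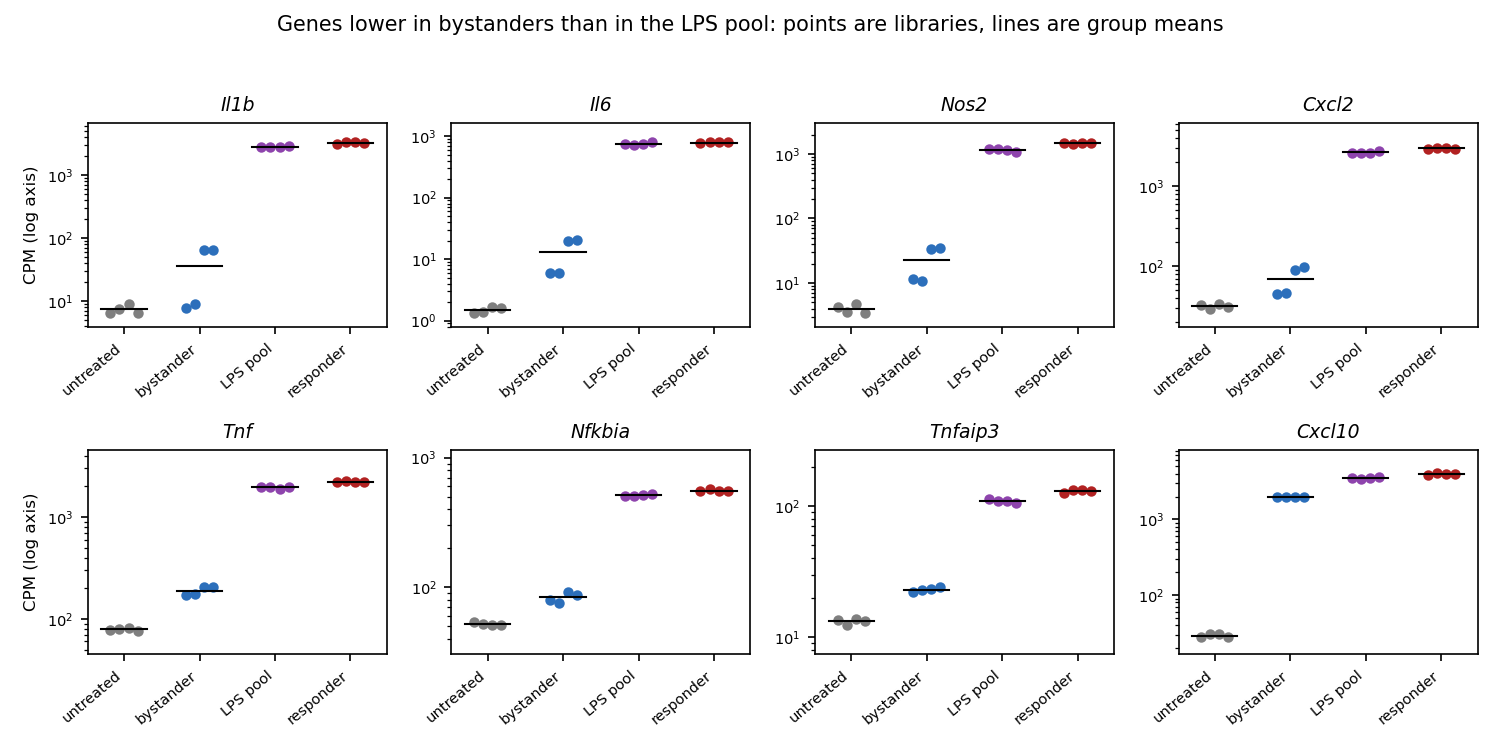
Levels in TMM-scaled CPM, each panel on its own log axis, of 8 genes lower in bystanders; points are the 4 libraries of each group and lines are group means. Il1b, Il6, Nos2 and Cxcl2 show bystander replicates 3 and 4 above replicates 1 and 2, while for Cxcl10 the 4 bystander libraries sit together, between untreated cells and the LPS pool.

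Bystander replicates 3 and 4 lay above replicates 1 and 2 for most of the lowest genes. Among the 15 lowest genes, replicates 3 and 4 were both above replicates 1 and 2 for 14, the exception being 6530402F18Rik, and over the 15 the difference between the means of the pairs came to a median of 1.99% of the LPS pool mean (0.595% to 3.34%). For 18 genes with an LPS pool mean of at least 100 CPM and a mean of the 4 bystander libraries at 10% of it or less, 18 showed the same order. The median difference was 1.95% of the LPS pool mean (1.26% to 3.46%). This order was not counted over all genes tested, so whether it is particular to genes this low in bystanders was not tested. For Il1b the means were 8.41 CPM in replicates 1 and 2 and 64.6 CPM in replicates 3 and 4, or 0.298% and 2.29% of the LPS pool mean. Csf3 gave 0.217% and 2.28%. Replicates 3 and 4 were also the bystander libraries with neural transcripts. For genes at a few percent of the LPS pool the fold therefore depends on which bystander libraries are used, as it did for Il1b. The direction was the same in both pairs for every named gene called. This follows from the lack of overlap between the groups, which the naming rule required for the 15 lowest and 15 highest genes.

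**Figure D3:**
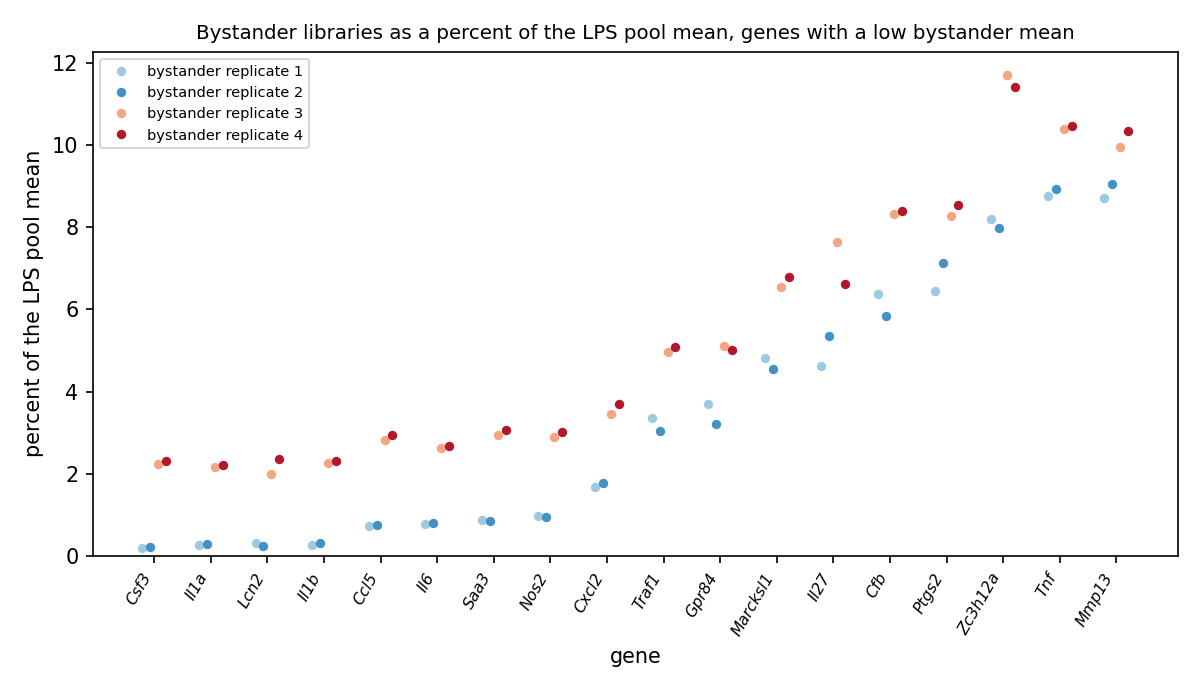
Level of each bystander library as a percent of the LPS pool mean, for the 18 genes with an LPS pool mean of at least 100 CPM and a bystander mean of at most 10% of it. Replicates 3 and 4 lay above replicates 1 and 2 for all 18 genes, by 1.26% to 3.46% of the LPS pool mean.

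Chemokines, which draw leukocytes to a site of infection, were all lower. All 16 tested members were called lower in bystanders, 13 by at least 2-fold, with a median log2 fold of -2.28 and a range of -5.77 to -0.46. Ccl5, an attractant of T cells and monocytes, stood at 6.30, 6.36, 24.3 and 25.3 CPM in bystanders and 843, 849.6, 845 and 892 CPM in the LPS pool, 50.2-fold lower (edgeR adjusted p = 1.22e-11), 134-fold without and 35.0-fold with the neural-transcript libraries. Cxcl2, a neutrophil attractant, stood at 44.4, 46.7, 90.8 and 97.5 CPM in bystanders and 2603, 2616, 2573 and 2725 CPM in the LPS pool, with 31.5 ± 2.07 CPM in untreated cells. It was 36.2-fold lower, 57.4-fold without and 28.1-fold with the neural-transcript libraries. Its bystander libraries were all above the untreated mean and all far under the LPS pool. Ccl17, an attractant of T cells, had 1, 3, 24 and 18 reads in bystanders and 516, 596, 503 and 447 reads in the LPS pool libraries.

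Other chemokines kept much more of the LPS pool level. Ccl9 had 808 ± 27.0 CPM in bystanders against 3977 ± 52.9 CPM in the LPS pool, 4.92-fold lower (edgeR adjusted p = 8.71e-61). Ccl2, the main monocyte attractant, stood at 1968, 1987, 2051 and 2037 CPM in bystanders and 4530.1, 4492, 4589.7 and 4678 CPM in the LPS pool, 2.27-fold lower, and at 444 CPM in untreated cells. Cxcl10 (chromosome 5, 92346638 to 92348889), an interferon-responsive attractant of T cells, stood at 1951, 1971, 1978 and 1995 CPM in bystanders and 3477, 3444, 3459 and 3583 CPM in the LPS pool. It was lower in bystanders by 1.77-fold (log2 fold -0.82 ± 0.018 SE, edgeR adjusted p = 8.40e-45), at 56.5% of the LPS pool, yet 67.5 times the untreated mean of 29.2 ± 1.38 CPM. For Il1b the bystander mean was 1.29% of the LPS pool.

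Feedback regulators of NF-kappaB, genes that the factor induces and that hold it in check or protect the cell, moved in the same direction. Of 25 tested, 24 were lower and 0 higher, 19 by at least 2-fold, with a median log2 fold of -1.87. The gene not called, named after its values were seen, was Rel, a subunit of NF-kappaB itself (11.7 against 10.5 CPM). Nfkbia (chromosome 12, 55489409 to 55492647), the inhibitor that retains NF-kappaB in the cytosol, stood at 79.0, 75.5, 91.2 and 87.4 CPM in bystanders and 501, 508, 511 and 521 CPM in the LPS pool, 6.08-fold lower (log2 fold -2.60 ± 0.034 SE, edgeR adjusted p = 2.94e-28). All bystander libraries exceeded the untreated mean of 51.9 ± 1.26 CPM. Tnfaip3, the ubiquitin-editing inhibitor A20, stood at 21.9, 22.9, 23.3 and 24.0 CPM in bystanders and 113, 109, 109 and 106 CPM in the LPS pool, 4.72-fold lower. Its partner Tnip1 stood at 67.9 ± 4.55 CPM in bystanders, 390.1 ± 7.58 CPM in the LPS pool and 107 ± 2.38 CPM in untreated cells, so that the bystander mean was under both. Ier3, an early response gene linked to cell survival, had 97.8 ± 6.10 CPM in bystanders against 729.6 ± 13.8 CPM in the LPS pool, 7.42-fold lower (edgeR adjusted p = 3.70e-60), with 103 ± 1.25 CPM in untreated cells.

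Genes that carry the LPS signal itself were split. Of 29 tested genes of the TLR4 and myddosome pathway, 14 were higher and 10 lower in bystanders, 2 and 4 of them by at least 2-fold, and the median log2 fold was 0.11. Tlr4 (chromosome 4, 66827551 to 66846581), the LPS receptor, stood at 128, 125, 125 and 125 CPM in bystanders and 34.9, 31.7, 29.7 and 31.2 CPM in the LPS pool. It was 3.93-fold higher in bystanders (log2 fold 1.98 ± 0.038 SE, edgeR adjusted p = 4.60e-48). Untreated cells, at 51.9 ± 1.05 CPM, lay between the groups, and responders stood at 30.7 ± 1.09 CPM. Cd14, which hands LPS to the receptor, went the other way, at 247, 244, 254 and 255 CPM in bystanders and 668, 650.4, 671 and 670.1 CPM in the LPS pool, 2.66-fold lower. The other gene at least 2-fold higher, Cd180, encodes a TLR4 homologue that restrains LPS signalling (246 against 109.8 CPM, named after its values were seen).

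Myd88 and Irak4 were slightly higher in bystanders, while Irak2 and Irak3 were lower. Myd88 stood at 256, 253, 255 and 255 CPM in bystanders and 212, 207, 201 and 196 CPM in the LPS pool, 1.25-fold higher (edgeR adjusted p = 4.71e-18), and Irak4, its first kinase, at 33.5 ± 1.23 against 29.1 ± 1.52 CPM, 1.16-fold higher (edgeR adjusted p = 1.83e-04). Irak2, a kinase of the same complex that LPS induces, was 1.40-fold lower at 108 ± 2.39 against 152 ± 3.08 CPM. The inhibitory family member Irak3 stood at 9.68, 8.67, 11.8 and 11.3 CPM in bystanders and 67.6, 73.4, 70.3 and 67.2 CPM in the LPS pool, 6.62-fold lower (edgeR adjusted p = 7.45e-47), with 12.6 ± 0.432 CPM in untreated cells. Ikbke, a kinase of the TRIF branch, was 4.57-fold lower at 59.2 ± 3.23 against 271 ± 9.01 CPM. Tlr4, Myd88 and Irak4 thus stood above the LPS pool in bystanders, and Cd14, Irak2, Irak3 and Ikbke under it.

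Macrophage effector and acute-phase genes, the products by which macrophages attack microbes and shape inflammation, were mostly lower too. Of 30 tested, 26 were lower and 1 higher, 23 of the 26 by at least 2-fold, with a median log2 fold of -2.24. Nos2 (chromosome 11, 78920787 to 78960226), the inducible nitric oxide synthase, stood at 11.3, 10.8, 33.2 and 34.8 CPM in bystanders and 1182, 1174, 1168 and 1082 CPM in the LPS pool, 47.4-fold lower (edgeR adjusted p = 8.29e-12), 107-fold without and 33.1-fold with the neural-transcript libraries. Ptgs2, the cyclooxygenase of prostaglandin synthesis, stood at 80.0, 88.6, 103 and 106 CPM in bystanders and 1233, 1249, 1238 and 1244 CPM in the LPS pool, 13.0-fold lower. For Nos2 the bystander pairs were well apart, for Ptgs2 closer together, and neither gene overlapped between groups.

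Lcn2, which binds bacterial siderophores, stood at 0.802, 0.606, 4.93 and 5.78 CPM in bystanders and 241, 242, 248 and 254 CPM in the LPS pool, 71.0-fold lower (edgeR adjusted p = 1.55e-12), 339.6-fold without and 46.8-fold with the neural-transcript libraries. Saa3, a serum amyloid protein, stood at 20.8, 19.9, 68.8 and 71.9 CPM in bystanders and 2314, 2365, 2264 and 2434 CPM in the LPS pool, 48.2-fold lower, 115-fold without and 33.3-fold with the neural-transcript libraries. Clec4e, the lectin Mincle that senses mycobacterial glycolipid, had 329 ± 12.7 CPM in bystanders against 1739 ± 31.4 CPM in the LPS pool, 5.27-fold lower, against 248 ± 1.95 CPM in untreated cells. Read counts were low for Slc7a2, an arginine transporter (6, 1, 12 and 20 reads in bystanders and 241, 267, 220 and 205 in the LPS pool), for Tnfrsf8, the receptor CD30 (1, 0, 12 and 12 and 237, 274, 236 and 178 reads), and for 6530402F18Rik (2, 6, 8 and 8 and 248, 268, 210 and 195 reads). The member that was higher was Plau, the urokinase plasminogen activator, at 988, 994, 981 and 989 CPM in bystanders and 299, 309, 292 and 292 CPM in the LPS pool, 3.31-fold higher (log2 fold 1.73 ± 0.021 SE, edgeR adjusted p = 1.10e-58). Untreated cells stood at 397 ± 3.76 CPM for Plau, above the LPS pool and below the bystanders. Neutrophil markers moved with this group: all 4 that were tested, Csf3r, Mmp9, Mmp8 and S100a8, were lower in bystanders, and their part in the result was not tested.

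Interferon-stimulated antiviral genes went both ways in bystanders. Of 42 tested, 22 were higher and 19 lower, 3 and 4 of them by at least 2-fold, and the median log2 fold was 0.09 with a range of -1.98 to 1.37. Rsad2, the antiviral enzyme viperin, stood at 6107, 6119.9, 6070.1 and 6058 CPM in bystanders and 5046, 5037, 5136 and 5194 CPM in the LPS pool, 1.19-fold higher (edgeR adjusted p = 4.60e-06), beside 63.5 ± 5.93 CPM in untreated cells. Ifit1, which binds foreign RNA caps, stood at 2079, 2124, 2077 and 2093 CPM in bystanders and 1264, 1268, 1309.8 and 1354 CPM in the LPS pool, 1.61-fold higher, beside 23.4 ± 2.52 CPM in untreated cells. Both genes thus had bystander libraries above every LPS pool library. Slfn8, a Schlafen family member, was 2.59-fold higher at 265 ± 4.40 against 102 ± 3.29 CPM (edgeR adjusted p = 6.78e-48), while Gbp5, a GTPase that promotes inflammasome assembly, was 2.76-fold lower at 145 ± 6.96 against 402 ± 10.8 CPM. Ifnb1, the interferon itself, was near the limit of detection, at 0.0734 CPM in bystanders and 1.09 CPM in the LPS pool, and was called lower (edgeR adjusted p = 9.25e-09; named after its values were seen).

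Immunity-related GTPases, which attack the vacuoles of intracellular parasites, were listed together with guanylate-binding proteins such as Gbp5. This joint list leaned higher: 14 of 19 were higher and 5 lower, 8 and 3 by at least 2-fold, with a median log2 fold of 0.69. Iigp1 stood at 229, 233, 224 and 223 CPM in bystanders and 42.0, 44.5, 45.7 and 42.7 CPM in the LPS pool, 5.19-fold higher (log2 fold 2.38 ± 0.037 SE, edgeR adjusted p = 4.10e-50), and at 1.37 ± 0.522 CPM in untreated cells. Irgm2, a regulator of the family, had 353 ± 5.77 CPM in bystanders against 91.0 ± 3.11 CPM in the LPS pool, 3.88-fold higher, and Igtp was 2.50-fold higher at 596 ± 17.5 against 238 ± 8.50 CPM. Tgtp1 was 5.22-fold higher at 37.9 ± 1.78 against 7.21 ± 0.903 CPM, but may share reads with its close copy Tgtp2 and is uncertain. Gbp5, given above, is also on this list and was lower. The guanylate-binding proteins went both ways: Gbp3 stood at 55.0% and Gbp8 at 397% of the LPS pool mean (both named after their values were seen).

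Of 8 interferon regulatory factors 6 were higher and 2 lower, with a median log2 fold of 0.75. Irf1 (chromosome 11, 53770014 to 53778374), an activator downstream of interferon and NF-kappaB, stood at 419, 423, 416 and 420.1 CPM in bystanders and 147, 146, 137 and 143 CPM in the LPS pool, 2.93-fold higher (log2 fold 1.55 ± 0.025 SE, edgeR adjusted p = 2.09e-52). Irf2, its structural relative, stood at 196, 196, 189 and 198 CPM in bystanders and 48.1, 48.8, 48.0 and 48.6 CPM in the LPS pool, 4.02-fold higher (edgeR adjusted p = 1.47e-51). Untreated means were 30.9 ± 1.59 CPM for Irf1 and 35.7 ± 2.61 CPM for Irf2, so that the bystander level was above both other groups for each.

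JAK kinases, STAT factors and SOCS suppressors divided 10 higher to 6 lower among 19 tested, with a median log2 fold of 0.14 (11 higher and 3 lower with library totals alone). The 2 largest differences were in opposite directions and both in SOCS genes, which shut down cytokine receptor signalling. Socs1 (chromosome 16, 10783808 to 10785536), an inhibitor of interferon receptor signalling, stood at 84.3, 76.5, 78.4 and 81.6 CPM in bystanders and 13.0, 9.59, 12.4 and 11.8 CPM in the LPS pool, 6.92-fold higher (log2 fold 2.79 ± 0.06 SE, edgeR adjusted p = 4.63e-45). Socs3, an inhibitor of interleukin-6 receptor signalling, stood at 33.7, 34.6, 41.0 and 39.5 CPM in bystanders and 249.8, 250.5, 246 and 230.1 CPM in the LPS pool, 6.49-fold lower (log2 fold -2.70 ± 0.043 SE, edgeR adjusted p = 1.11e-26). Untreated means were 1.31 CPM for Socs1 and 2.97 CPM for Socs3. Tyk2, a receptor-bound kinase, was 1.95-fold lower at 68.8 ± 1.35 against 134 ± 6.22 CPM.

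The promoters of 4 of these genes are shown because the genes took different positions: Il1b and Nfkbia far lower, Cxcl10 somewhat lower and Irf1 higher in bystanders. Each is the 250 bases before the gene's start in RefSeq's table for GRCm38.p6, written 5′ to 3′ on the gene's strand; for Il1b that start lies inside the outer limit of the gene given above. They lie at chr2:129371140-129371389 (minus strand), chr12:55492648-55492897 (minus strand), chr5:92348890-92349139 (minus strand) and chr11:53769764-53770013 (plus strand), in the order below. Capitals mark matches, on either strand, to the NF-kappaB consensus, to the interferon-stimulated response element core GAAANNGAAA or to the STAT site TTCNNNGAA, the last of which was added after the sequences were seen.
Il1b: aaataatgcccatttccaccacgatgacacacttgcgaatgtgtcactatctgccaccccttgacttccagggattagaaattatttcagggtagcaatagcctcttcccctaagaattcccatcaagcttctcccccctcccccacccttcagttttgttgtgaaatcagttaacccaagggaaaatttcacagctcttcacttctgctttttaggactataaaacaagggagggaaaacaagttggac
Nfkbia: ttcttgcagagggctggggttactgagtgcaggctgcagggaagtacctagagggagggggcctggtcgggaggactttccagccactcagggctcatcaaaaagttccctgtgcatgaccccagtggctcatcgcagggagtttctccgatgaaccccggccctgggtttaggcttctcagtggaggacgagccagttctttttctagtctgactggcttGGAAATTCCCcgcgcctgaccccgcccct
Cxcl10: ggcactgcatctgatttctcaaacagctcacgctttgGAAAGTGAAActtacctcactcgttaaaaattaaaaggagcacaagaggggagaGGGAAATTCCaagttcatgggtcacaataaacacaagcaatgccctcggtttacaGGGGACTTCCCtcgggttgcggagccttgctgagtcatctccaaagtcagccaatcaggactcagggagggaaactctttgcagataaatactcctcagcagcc
Irf1: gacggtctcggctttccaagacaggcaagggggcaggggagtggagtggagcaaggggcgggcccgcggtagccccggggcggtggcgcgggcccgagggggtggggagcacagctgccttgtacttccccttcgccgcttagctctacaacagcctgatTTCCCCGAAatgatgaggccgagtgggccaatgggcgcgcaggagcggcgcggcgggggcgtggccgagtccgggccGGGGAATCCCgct
The window of Il1b held none of the 3 patterns. Nfkbia had 1 NF-kappaB match, on the opposite strand, 29 to 20 bases before the start. Cxcl10 had 3 NF-kappaB matches, of which 2 overlap each other, and 1 response element core 213 to 204 bases before the start. Irf1 had 1 NF-kappaB match, 13 to 4 bases before the start, and 1 STAT site 90 to 82 bases before it. Of 32851 promoter windows of this length in the table, 7.25% held the NF-kappaB consensus, 2.98% the response element core and 7.02% the STAT site. A match describes the letters only, and no match says only that these letters are not in this window.

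Rgs2, Otud1 and Gm12185 were among the genes with the highest folds in bystanders. Rgs2 (chromosome 1, 143999338 to 144004149), which speeds the inactivation of G proteins, stood at 381, 378, 392 and 381 CPM in bystanders and 47.5, 47.7, 44.8 and 47.4 CPM in the LPS pool. It was 8.17-fold higher (log2 fold 3.03 ± 0.03 SE, edgeR adjusted p = 8.98e-64), whereas the untreated, LPS pool and responder means were 44.3, 46.9 and 47.3 CPM. Otud1, a deubiquitinase, stood at 54.8, 50.6, 48.6 and 51.9 CPM in bystanders and 6.99, 7.41, 5.40 and 7.67 CPM in the LPS pool, 7.46-fold higher. Gm12185, a predicted gene, stood at 76.7, 75.3, 71.4 and 74.0 CPM in bystanders and 7.16, 6.36, 6.15 and 6.19 CPM in the LPS pool, 11.5-fold higher (edgeR adjusted p = 3.83e-49), the largest fold among genes of at least 5 CPM. The rule for naming the highest folds required no overlap between the groups, so its absence for these 3 genes was set by that rule.

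Tnfsf18, the ligand of the receptor GITR, stood at 12.9, 13.9, 12 and 13.0 CPM in bystanders and 1.85, 1.95, 2.42 and 1.90 CPM in the LPS pool, 6.36-fold higher. P2ry13, a receptor for ADP, stood at 32.8, 32.8, 32.1 and 30.8 CPM in bystanders and 6.30, 6.74, 7.14 and 3.45 CPM in the LPS pool, where replicate 4 was lowest. Il18rap, a chain of the interleukin-18 receptor, was 5.24-fold higher at 40.5 ± 0.674 against 7.70 ± 0.374 CPM, with 16.5 ± 0.696 CPM in untreated cells. The transcription factor Pou3f1 was 4.38-fold higher at 47.4 ± 1.40 against 10.8 ± 0.815 CPM. For Tns1, which links integrins to actin, the means were 9.49 ± 1.35 and 2.18 ± 0.11 CPM and the untreated mean was 7.09 CPM. Enc1 was 4.79-fold and Tcp11l2 4.79-fold higher, with bystander means of 82.9 and 23.6 CPM.

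**Figure D4:**
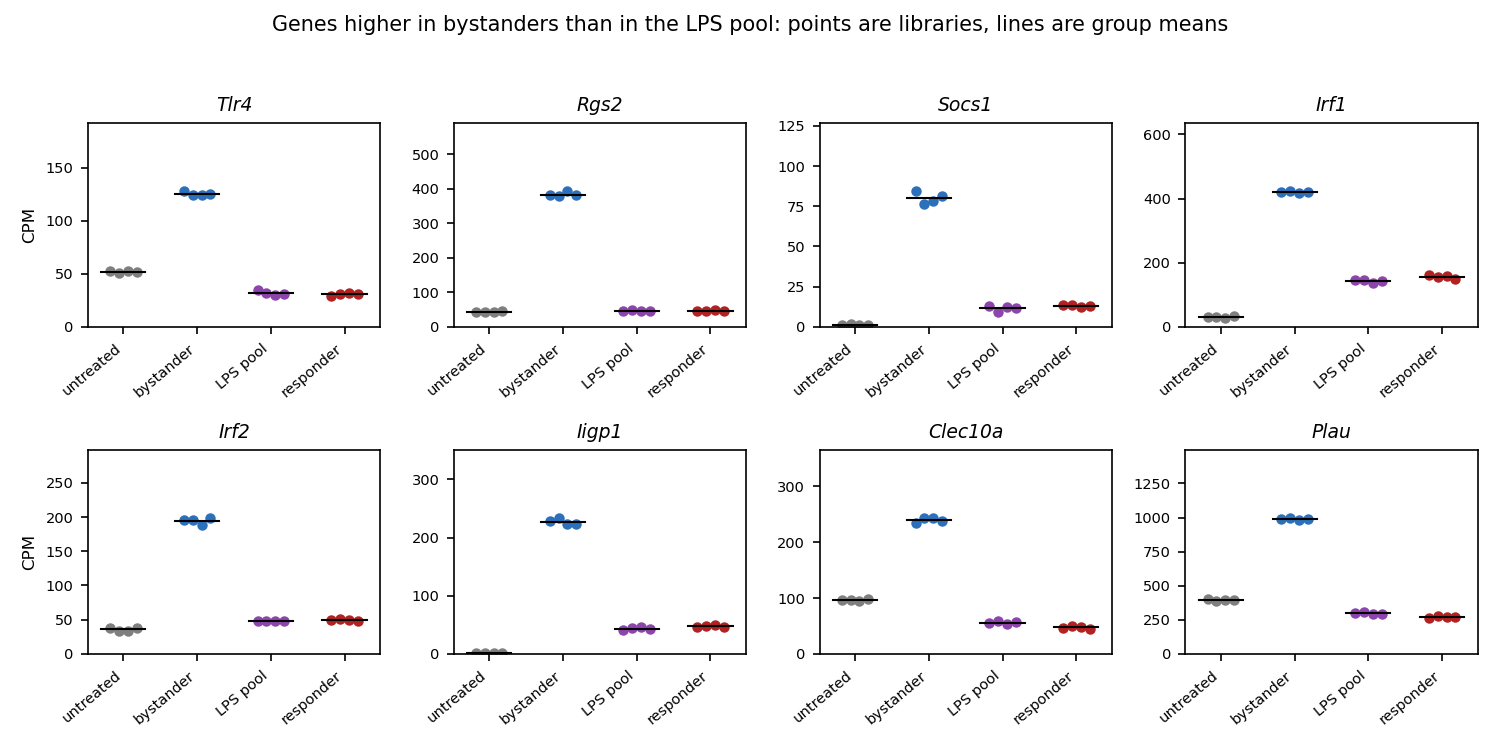
Levels in TMM-scaled CPM, each panel on its own linear axis from 0, of 8 genes higher in bystanders; points are the 4 libraries of each group and lines are group means. For each gene the 4 bystander libraries stand above the other 12 libraries, and for Tlr4, Clec10a and Plau the LPS pool and responders lie under untreated cells.

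Genes of macrophage identity were mixed, with 14 of 29 higher and 10 lower in bystanders and a median log2 fold of 0.03 (17 higher and 6 lower with library totals alone). At 2-fold 5 were higher and 3 lower, and log2 folds ran from -1.65 to 2.32. The macrophage marker Adgre1 stood at 48.1% of the LPS pool mean (named after its values were seen). The lower count was near the 32.9% over all genes tested. Clec10a (chromosome 11, 70166623 to 70170836), a lectin for galactose, stood at 234, 243, 242 and 237 CPM in bystanders and 56.1, 58.3, 53.2 and 56.4 CPM in the LPS pool, 4.26-fold higher (log2 fold 2.09 ± 0.031 SE, edgeR adjusted p = 1.68e-54), with 96.4 ± 1.55 CPM in untreated cells. Its level was thus above untreated cells in bystanders and below them in the LPS pool. Csf1r, the receptor on which macrophages depend for survival, was 1.18-fold higher at 699 ± 5.99 against 592 ± 14.2 CPM, under the untreated mean of 894 CPM. Cd68, a lysosomal glycoprotein of macrophages, stood at 744, 739, 739 and 721 CPM in bystanders and 733, 730.2, 692 and 718 CPM in the LPS pool and was not called (log2 fold 0.03, edgeR adjusted p = 0.119), although library totals alone gave 0.17 and a call.

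Antigen presentation and costimulation genes were mostly lower: 14 of 18 lower and 3 higher, 3 of the 14 by at least 2-fold. The median log2 fold was -0.41, with a range of -2.35 to 0.67. H2-K1 and H2-D1, the classical class I heavy chains, were 1.73-fold and 1.77-fold lower, at 739.8 ± 9.19 against 1281 ± 15.3 CPM and 863 ± 18.1 against 1530.4 ± 32.6 CPM, and their similar sequences make each uncertain. Among 21 genes of the inflammasome and cell death 13 were lower and 7 higher. Nlrp3, the sensor of the inflammasome that matures interleukin-1 beta, stood at 108, 107, 111 and 111 CPM in bystanders and 336, 332, 328 and 304 CPM in the LPS pool, 2.97-fold lower (edgeR adjusted p = 1.54e-50). Ripk1, a kinase that decides between survival and death after TNF, was 2.05-fold higher at 124 ± 2.73 against 60.2 ± 1.75 CPM, with 68.1 ± 1.59 CPM in untreated cells.

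Immediate-early genes, which respond to signals within minutes, also divided: 13 of 33 were higher and 16 lower, 7 in each direction by at least 2-fold, with a median log2 fold of -0.07 (15 and 15 with library totals alone). The median was -0.39 without bystander replicate 3, -0.21 without LPS pool replicate 2, -0.17 without LPS pool replicate 4 and -0.27 in the libraries with neural transcripts. Rgs2, described above, led the higher members. Fos, a subunit of the AP-1 factor, stood at 25.1, 27.6, 28.1 and 26.9 CPM in bystanders and 10.1, 9.45, 13.1 and 11 CPM in the LPS pool, 2.49-fold higher (edgeR adjusted p = 4.79e-24). Gadd45b, a stress-induced activator of MAP kinase signalling, was 2.48-fold lower at 141 ± 3.80 against 351 ± 3.93 CPM. Egr1, a zinc-finger factor of the same class, stood at 1.43, 1.21, 2.79 and 1.31 CPM in bystanders and 1.04, 0.854, 4.10 and 0.774 CPM in the LPS pool, where replicate 3 stood apart. It was not called (edgeR adjusted p = 0.942), but without LPS pool replicate 3 its log2 fold was 0.94 with an edgeR adjusted p of 0.00697.

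Regulators that end signalling by mRNA decay or dephosphorylation were lower for 12 of 22 and higher for 7, with a median log2 fold of -0.26. Zfp36, the protein tristetraprolin that marks cytokine mRNAs for decay, was 1.52-fold lower at 226 ± 2.94 against 343 ± 10.4 CPM, well above the untreated mean of 33.0 CPM. Dusp6, a phosphatase of the kinase ERK, was 1.75-fold higher at 195 ± 4.03 against 111 ± 4.75 CPM (edgeR adjusted p = 1.99e-34). The targets of p53 were lower for 11 of 19 and higher for 6 (2 in the libraries with neural transcripts). Gdf15, a stress-induced hormone, stood at 76.8, 73.2, 82.0 and 83.6 CPM in bystanders and 464, 465, 432 and 463 CPM in the LPS pool, 5.75-fold lower, and the p53 antagonist Mdm2 was 1.59-fold lower at 229 ± 4.35 against 365 ± 5.09 CPM.

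Mitotic genes were higher in bystanders. Of 32 genes of G2 and mitosis tested, 27 were higher and 0 lower, 1 by at least 2-fold, with a median log2 fold of 0.43. Top2a, the topoisomerase that untangles replicated chromosomes, stood at 302, 317, 303 and 307 CPM in bystanders and 216, 209.9, 212 and 204 CPM in the LPS pool, 1.46-fold higher (edgeR adjusted p = 2.14e-30), with 365 ± 1.99 CPM in untreated cells. Kif11, a motor of the mitotic spindle, was 1.70-fold higher at 79.0 ± 0.819 against 46.5 ± 1.71 CPM, and the mitotic cyclin Ccnb2 1.65-fold higher at 90.6 ± 0.93 against 55.0 ± 1.98 CPM. The member past 2-fold, named after its values were seen, was Mki67, a marker of cycling cells (476 against 228 CPM, untreated 514 CPM). Genes of G1/S and DNA replication gave 17 higher and 8 lower of 33 (4 lower with library totals alone), with a median log2 fold of 0.10. Pcna, the clamp that holds the replicating polymerase, was 1.38-fold higher at 514 ± 9.95 against 373 ± 16.7 CPM, and Rrm1, a subunit of ribonucleotide reductase, 1.39-fold higher at 272 ± 5.49 against 195 ± 2.53 CPM.

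**Figure D5:**
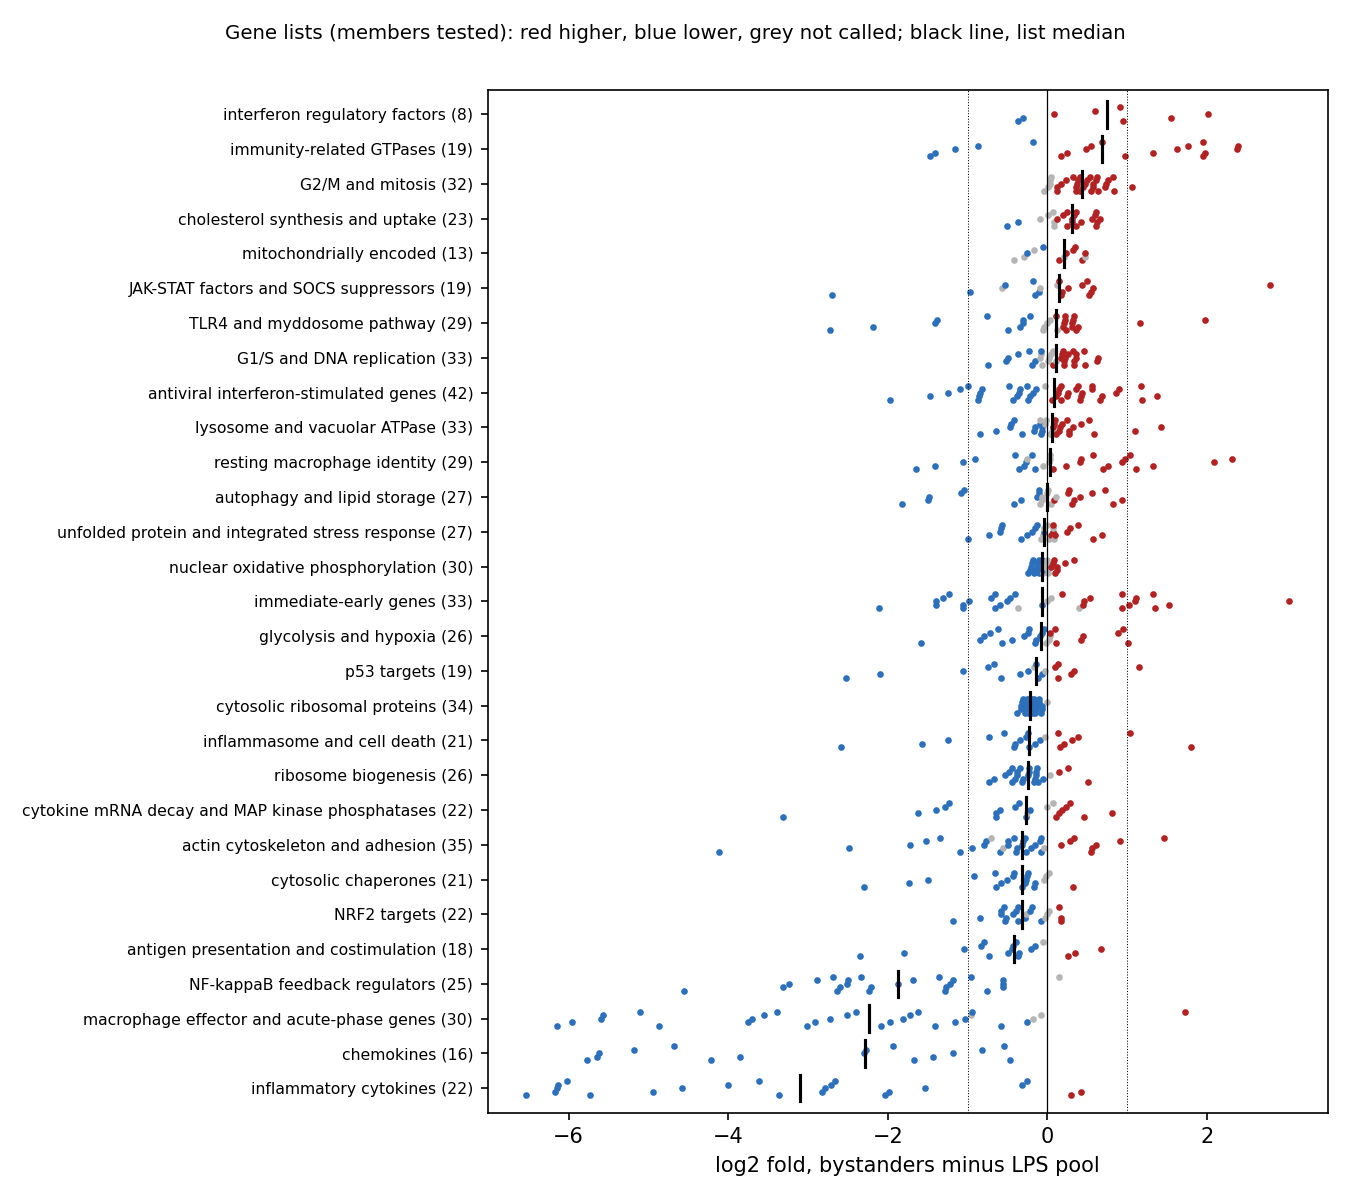
Log2 fold of bystanders minus LPS pool for each tested member of the 29 gene lists, ordered by list median (black lines); the number tested stands in brackets and dotted lines mark 2-fold. Cytokines, chemokines, effector genes and NF-kappaB feedback regulators have medians of -3.10, -2.28, -2.24 and -1.87, the next lowest list median being -0.41, while interferon regulatory factors have the highest at 0.75.

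Lipid and lysosome genes mostly differed by small amounts. Cholesterol synthesis and uptake had 16 of 23 genes higher and 2 lower, none by 2-fold, with a median log2 fold of 0.31. Hmgcs1, an early enzyme of the pathway, was 1.19-fold higher at 84.2 ± 1.27 against 71.1 ± 2.54 CPM, and the efflux transporter Abcg1 1.58-fold higher at 248 ± 0.99 against 157 ± 2.53 CPM. Lysosome and vacuolar ATPase genes gave 16 higher and 12 lower of 33 (22 and 6 with library totals alone). The proton-pump subunit Atp6v0d2 was 2.67-fold higher at 111 ± 3.17 against 41.4 ± 2.22 CPM and the protease Ctsz 1.80-fold lower at 1016 ± 15.8 against 1829 ± 20.9 CPM. Autophagy and lipid storage gave 10 in each direction of 27, near the 34.1% higher and 32.9% lower over all genes tested. With library totals alone the counts were 14 higher and 7 lower. At 2-fold 5 were lower and 0 higher. Among them the autophagy receptor Sqstm1 was 2.12-fold lower at 706 ± 8.26 against 1494 ± 11.3 CPM, and Acsl1, which activates fatty acids, 2.82-fold lower at 41.0 ± 1.85 against 116 ± 5.58 CPM.

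Actin and adhesion genes were lower for 24 of 35 and higher for 8, with a median log2 fold of -0.32. Actb, cytoplasmic beta-actin, stood at 5733, 5647, 5914 and 5964 CPM in bystanders and 9953, 9911, 10274 and 10082 CPM in the LPS pool, 1.73-fold lower (edgeR adjusted p = 3.02e-45), with 4318 ± 69.2 CPM in untreated cells. Itga5, a chain of the fibronectin receptor, was 3.30-fold lower at 126 ± 5.73 against 416 ± 3.21 CPM, and Vasp, which promotes actin filament growth, 2.86-fold lower at 156 ± 5.95 against 448 ± 7.74 CPM. For Itga5 and Vasp the untreated means of 114 and 165 CPM lay near the bystander level.

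Stress genes differed from list to list. Targets of NRF2, the antioxidant factor, were lower for 15 of 22 and higher for 3 (7 with library totals alone, 1 without bystander replicate 4), with a median log2 fold of -0.32. Hmox1, the haem-degrading oxygenase, stood at 371, 376, 381 and 380.4 CPM in bystanders and 847, 863, 854 and 849 CPM in the LPS pool, 2.26-fold lower (edgeR adjusted p = 5.48e-52), and Gsr, the glutathione reductase, was 1.80-fold lower at 123 ± 1.52 against 221 ± 6.34 CPM. Cytosolic chaperones were lower for 17 of 21 and higher for 1 (4 with library totals alone). Hspa8, a constitutive heat shock protein, was 1.56-fold lower at 2868 ± 11 against 4488 ± 81.5 CPM, and Hsph1, its exchange factor, 1.57-fold lower at 169.5 ± 3.94 against 266 ± 2.51 CPM. The unfolded protein and integrated stress response had 9 higher and 11 lower of 27, none by 2-fold. Over all genes tested 34.1% were higher and 32.9% lower. The split in this list turned to 16 higher and 8 lower with library totals alone, with 5 higher in the libraries with neural transcripts. Atf6, a sensor of the endoplasmic reticulum, was 1.60-fold and Edem1, which directs misfolded glycoproteins to degradation, 1.48-fold higher, with bystander means of 172 and 412 CPM.

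Energy and translation genes mostly differed by small amounts. Glycolysis and hypoxia genes gave 8 higher and 15 lower of 26, which turned to 13 and 10 with library totals alone. The glucose transporter Slc2a6 was 3.01-fold lower at 123 ± 2.15 against 370.1 ± 8.34 CPM and hexokinase Hk2 1.79-fold lower at 202 ± 3.11 against 361 ± 5.50 CPM. Nuclear respiratory chain genes gave 8 higher and 16 lower of 30 within a range of -0.25 to 0.33 on the log2 scale, and turned to 15 and 2 with library totals alone, with 5 higher without LPS pool replicate 1 or 2 and 4 higher in the libraries with neural transcripts. At the ends of that range were Cox4i1, a subunit of cytochrome oxidase (425 ± 13.5 against 506 ± 12.5 CPM), and Ndufs1, a subunit of complex I (105 ± 5.24 against 83.6 ± 2.82 CPM). Of 13 mitochondrially encoded genes 6 were higher and 2 lower (1 without LPS pool replicate 4), with ND2 1.35-fold and CYTB 1.27-fold higher. Cytosolic ribosomal proteins were lower for 33 of 34 and higher for 0, none by 2-fold, with a median log2 fold of -0.22, and 21 were lower and 4 higher with library totals alone. Rpl18 was 1.25-fold lower at 1095 ± 9.10 against 1364 ± 20.5 CPM and Rplp1 1.22-fold lower at 1469.5 ± 39.6 against 1792 ± 46.2 CPM. Ribosome biogenesis genes were lower for 22 of 26 and higher for 3 (5 with library totals alone), with a median log2 fold of -0.24. Nop56, a component of ribosomal RNA processing, was 1.59-fold lower at 221 ± 5.26 against 350.3 ± 8.31 CPM and Rrp9, of the same process, 1.66-fold lower at 77.4 ± 1.32 against 128 ± 5.53 CPM.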

How the data were processed

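RNA sequencing libraries from bystander and LPS pool cells, 4 each, were compared, with 4 responder and 4 untreated libraries in the same fit. The authors deposited raw read counts per gene for all 16. Tools named per the submitters' processing notes are HISAT2 2.2.2 and featureCounts 2.1.1, with fastp 1.1.0 and cutadapt 3.7, and the build is GRCm38 (mm10). How multi-mapping reads, strand and annotation were handled was not given in the sources used here, so values are uncertain for overlapping or antisense genes, for near-identical copies (Tgtp1 and Tgtp2, Ifit3 and Ifit3b, Gapdh, Fth1) and for H2-K1 beside H2-D1. Of 27179 identifiers, 25275 matched a symbol in RefSeq's GRCm38.p6 table, and the other 1904 held 0.399% of the counts. The table also held 3 empty columns. The pairwise chi-square of replicates was 1.62 to 3.13 per degree of freedom over 12 pairs, so none was counted as a repeat.

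From the counts, edgeR 4.0.16 in R 4.3.3 was used with filterByExpr (12589 genes kept), trimmed mean of M-values (TMM) scaling and a robust quasi-likelihood fit of all 16 libraries with 1 mean per group. Tests were two-sided, p-values were adjusted by Benjamini-Hochberg across the 12589 genes, and the threshold was 0.05. CPM are TMM-scaled, except for marker sums, which use library totals. An SE is the log2 fold divided by the square root of the F value. The fit was also run on simulated counts, with all groups drawn from the LPS pool means and few genes changed in bystanders. That run does not test the scaling used here. A total of 29 gene lists and 7 marker lists was used, and each is given by counts and median, with no test of the list. Named genes were the 15 highest and 15 lowest folds among genes called, at 5 CPM or more and without overlap between groups, the 2 members of each list with the smallest p at 1 CPM or more, and 35 fixed genes, 104 in all, of which 2 are not reported here; for any other gene the text says that it was named with its values in view. The comparison, lists and rule were chosen with earlier results of these data known. Alternatives were other scalings, DESeq2 1.42.0, no filter, the 8 libraries alone, a replicate block, leaving out each replicate and, chosen after seeing the data, splitting by neural transcripts. Promoters came from RefSeq's GRCm38.p6 table, where all 4 genes matched.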

Additional observations from a re-analysis of the deposited data

Results flagged for a closer look

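In 11 of 208 sets of 4 libraries (104 named genes in 2 groups, 5.29%) 1 library lay apart from the other 3 by Dixon's criterion, which chance alone reaches in about 1 in 20. In the LPS pool, replicate 4 was high for Il1b (2926 CPM, others 2782 to 2798) and Ccl5 (892 CPM, others 843 to 850) and low for Nos2 (1082 CPM, others 1168 to 1182). LPS pool replicate 3 was low for Tnf (1877 CPM, others 1979 to 1990), Gdf15 (432 CPM, others 463 to 465) and Rgs2 (44.8 CPM, others 47.4 to 47.7) and high for Egr1 (4.10 CPM, others 0.774 to 1.04). Egr1 was also high in bystander replicate 3 (2.79 CPM, others 1.21 to 1.43). Bystander replicate 1 was low for Rrm1 (264 CPM, others 274 to 275) and high for Tlr4 (128 CPM, others 124.7 to 124.9), and bystander replicate 2 was low for Vasp (147 CPM, others 158 to 160.3). Apart from Egr1, each of these values stayed on its own group's side of the gap to the other group.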

How the results depend on the processing

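Against 4298 genes higher and 4142 lower in bystanders (513 and 620 at 2-fold), scaling by library totals alone gave 5951 and 2755 (712 and 491 at 2-fold), and 70 calls changed direction, none of a named gene. This setting moves the median log2 fold of all genes from 0.003 to 0.14. DESeq2's size factors gave 4130 and 4289 genes, its test 3981 and 4164 with 2 adjusted p-values missing, no filter 4202 and 4219 of 20021, and the 8 libraries alone 4169 and 4036 of 12048. Leaving out each replicate in turn gave 4033 to 4147 higher and 4024 to 4126 lower (510 to 542 and 617 to 642 at 2-fold). Libraries without neural transcripts gave 3623 and 3616, and those with them 3565 and 3419, from 2 libraries per group. Of the 104 named genes 102 kept direction and side of the threshold in all 16 alternatives: Cd68 was called with library totals alone (log2 fold 0.17), and Egr1 without LPS pool replicate 3 (0.94). For the 15 lowest and 15 highest genes, named without overlap between groups, the direction in subsets of libraries was largely set by that rule. With a replicate block 4277 genes were higher and 4109 lower. Same-numbered bystander and LPS pool libraries deviated together with r of 0.07, 0.10, 0.30 and -0.01, beside -0.17 to 0.06 for differently numbered ones. The labels do not say what a number shares, and the main fit did not pair the samples. No named gene's call changed under the block. Of 8440 calls, 5880 were under 1.5-fold. Between libraries without and with neural transcripts the fold moved by over 1.5 times for 14 of the 15 lowest genes, and the cause was not tested. Depth limits the fold of genes with few bystander reads, such as Il1f6 and Csf2.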

Other observations

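The genes given here lie outside the naming rule and were chosen after their values were seen; 4 were lower in bystanders. Tnfrsf1b, a receptor for TNF, stood at 140.2, 139, 167 and 164 CPM in bystanders and 1359, 1375, 1399 and 1332 CPM in the LPS pool, 8.90-fold lower (edgeR adjusted p = 3.79e-16), with 94.3 ± 0.987 CPM in untreated cells (SD, n = 4). Gpr84, a receptor for medium-chain fatty acids, stood at 8.46 ± 1.90 CPM in bystanders, under its untreated mean of 13.8 CPM, and at 199 ± 3.14 CPM in the LPS pool. Upp1, a uridine phosphorylase, was 15.6-fold lower at 5.02 ± 1.23 against 81.0 ± 1.68 CPM. Slfn4, a Schlafen gene like Slfn8, went the other way from Slfn8: it was 6.50-fold lower at 118 ± 8.12 against 773 ± 3.01 CPM, beside 4.44 CPM in untreated cells.

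Higher in bystanders were several regulators and effectors. Arid5a, an RNA-binding protein known to stabilise Il6 mRNA, stood at 86.9, 85.2, 87.2 and 87.2 CPM in bystanders and 22.3, 22.8, 20.9 and 21.5 CPM in the LPS pool, 3.95-fold higher (edgeR adjusted p = 2.68e-43), while Il6 itself was 53.1-fold lower (124-fold without and 38.6-fold with the neural-transcript libraries). Slc40a1, the iron exporter ferroportin, stood at 65.2, 67.0, 62.8 and 69.7 CPM in bystanders and 18.7, 19.5, 20.2 and 19.9 CPM in the LPS pool, 3.38-fold higher, with 23.4 ± 1.12 CPM in untreated cells. Tnfsf10, the death ligand TRAIL, was 2.93-fold higher at 63.7 ± 1.61 against 21.9 ± 1.44 CPM, and at 0.598 CPM in untreated cells. Trim21, a cytosolic antibody receptor and ubiquitin ligase, was 3.19-fold higher at 202 ± 1.21 against 63.1 ± 3.24 CPM. The repressor Bcl6 was 2.96-fold and the ubiquitin ligase Cblb 3.02-fold higher, with bystander means of 34.4 and 47.9 CPM. St6gal1, a sialyltransferase, stood at 44.6 CPM in bystanders, 14.7 CPM in the LPS pool, 6.46 CPM in responders and 54.0 CPM in untreated cells. For each of these genes the 4 bystander libraries did not overlap the 4 LPS pool libraries, but they were chosen with their values in view. Over all genes tested the bystander libraries were all above the LPS pool libraries for 30.4% and all below them for 29%.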
